A study of Mus musculus with 24 samples.

Results

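The metabotropic serotonin receptors are the G protein-coupled receptors for serotonin, and 9 of their genes (Htr1a, Htr1b, Htr1d, Htr2a, Htr2c, Htr4, Htr5a, Htr6 and Htr7) were followed here in mouse hippocampus after hypoxia-ischemia (HI), a model of perinatal brain injury. The members were the lines of the deposited table that carried these names, 9 of 22314 lines with a gene name, and all 9 passed the filter on low values. The libraries came from hippocampi of P10 pups, that is postnatal day 10, after HI, and were titled WT, NEIL1-KO or NEIL2-KO, contralateral or ipsilateral, and 3 h or 6 h. They made 12 groups of 2 libraries, 24 in all, with 8 libraries per genotype. NEIL1 and NEIL2 are DNA glycosylases, enzymes that start base excision repair. The ipsilateral side is the injured one, and the contralateral hippocampus, used as the reference, belonged to pups that had also undergone HI. No uninjured pup was analysed here. The libraries titled NEIL2-KO carry NEIL1-KO as their genotype tag and were grouped by title. For strain, knockout alleles and the cells in which they act, the sources used here give nothing.

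Serotonin reaches the hippocampus through axons of raphe neurons, whose cell bodies lie in the brainstem, so hippocampal RNA reports mainly the receiving side of this system. Htr1a, Htr1b, Htr1d and Htr5a encode receptors that couple to Gi/o proteins, which lower cyclic AMP and, for Htr1a, open G protein-gated potassium channels. Htr2a and Htr2c encode Gq-coupled receptors that act through phospholipase C and calcium release. Htr4, Htr6 and Htr7 encode Gs-coupled receptors that raise cyclic AMP. In the hippocampus the Htr1a receptor is known for its place on the soma and dendrites of pyramidal and granule neurons, whereas Htr1b and Htr1d receptors are known as axonal receptors that restrain transmitter release.

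Depth was 17771293 to 29252067 reads per library. The check of the targeted genes held for 1 label: Neil2 had 0 to 4 reads in the 8 libraries titled NEIL2-KO and 15 to 34 reads in the other libraries. Neil1 did not separate its own label, with 91.6 to 155 normalized counts in the libraries labelled NEIL1-KO against 56.7 to 123 in WT, so this label is only a label in what follows. Markers of CA1, CA3 and dentate gyrus neurons were present in all 24 libraries. The summed level of 12 choroid plexus markers ran from 446 to 37931 normalized counts across libraries, and 1 of them, Kcnj13, was at 0 in at least 1 library. The library with the largest share of reads on lines without a gene name was NEIL1-KO ipsilateral 6 h replicate 2 (12.48%). Xist, the RNA of the inactive X chromosome, was high in 6 libraries, those of replicate 2 labelled NEIL1-KO at both times and of NEIL2-KO replicate 2 at 6 h, so sex moves with genotype and not with side. In bulk tissue, fewer cells of a type and less RNA per cell cannot be told apart. The replicates are taken to be separate animals. The p-values of the main fit measure the spread between libraries of the same group, pooled over all groups. They treat the 2 sides of a pup as independent and do not use the pairing.

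Promoter windows of Htr1d and Htr1a are printed because these genes, of the same Gi/o-coupled group, differed between the sides in opposite directions. They are RefSeq windows of 300 bases on the GRCm38.p6 build, not the GRCm39 build of the counts, from 250 bases before to 50 bases after an annotated start, on the plus strand. Htr1d has 2 annotated starts (chr4:136423274-136423573 and chr4:136424362-136424661) and Htr1a has 1 (chr13:105443443-105443742). Capitals mark matches to GGGCGG (the GC box, bound by Sp-family factors) or ACGTG (the core of the hypoxia response element), searched on both strands.
Htr1d, upstream start: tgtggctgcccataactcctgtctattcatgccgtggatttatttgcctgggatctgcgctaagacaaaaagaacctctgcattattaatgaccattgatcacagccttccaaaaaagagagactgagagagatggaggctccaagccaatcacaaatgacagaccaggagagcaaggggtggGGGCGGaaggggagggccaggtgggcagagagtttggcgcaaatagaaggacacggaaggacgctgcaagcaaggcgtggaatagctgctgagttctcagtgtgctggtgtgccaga
Htr1d, downstream start: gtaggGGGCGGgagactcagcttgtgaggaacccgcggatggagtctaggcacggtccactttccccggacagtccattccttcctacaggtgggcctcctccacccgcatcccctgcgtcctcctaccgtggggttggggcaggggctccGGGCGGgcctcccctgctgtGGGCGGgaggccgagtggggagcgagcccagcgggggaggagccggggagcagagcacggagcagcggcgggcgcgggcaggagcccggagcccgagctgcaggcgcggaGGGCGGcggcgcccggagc
Htr1a: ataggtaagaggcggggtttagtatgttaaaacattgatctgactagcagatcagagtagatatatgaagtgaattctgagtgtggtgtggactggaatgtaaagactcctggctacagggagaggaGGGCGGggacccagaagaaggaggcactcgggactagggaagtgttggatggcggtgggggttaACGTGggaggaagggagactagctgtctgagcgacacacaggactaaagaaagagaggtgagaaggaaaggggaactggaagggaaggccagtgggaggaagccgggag
The Htr1d windows held 1 and 4 GC boxes and no ACGTG. The Htr1a window held 1 GC box and 1 ACGTG. Neither gene's windows held TGACG, the core of the cyclic AMP response element, or TGANTCA, the AP-1 site of Fos and Jun. Over 32851 promoters of the same length, 35.7% held a GC box, 19.6% ACGTG, 20.8% TGACG and 7.81% TGANTCA. These shares count promoters with at least 1 match and do not tell how often 4 occur in 1 window. Htr4 was left out of this search. Among the other 8 members (10 windows), ACGTG also occurred once in windows of Htr1b, Htr5a, Htr6 and Htr7, and the Htr2c window held an AP-1 match. A match is a description of the letters and not evidence of binding.

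On the contralateral side the receptors differed widely in level. Per kilobase of merged exon (a scale that allows genes to be compared), Htr2c was highest with a median of 161 normalized counts per kb over the 12 contralateral libraries (126 to 206). Htr1a followed at 129 (106 to 159) and Htr7 at 106 (81.2 to 131). These 3 formed an upper group whose neighbours overlapped in range, and Htr2c exceeded Htr1a in 9 of 12 libraries. Htr6 (55.4), Htr5a (43.4), Htr4 (38.5) and Htr2a (35.7) formed a middle group with overlapping neighbours, separated from Htr7 without overlap. Htr1b had a median of 23.6 and Htr1d of 6.95, and neither range touched that of its upper neighbour. Exon lengths came from GENCODE M21 on GRCm38, and whether the counting used strand is not stated, so reads of Htr1b cannot be told apart from those of D430036J16Rik, an antisense gene that overlaps its exons. On the ipsilateral side the order of the medians differed. Htr7 (74.2 normalized counts per kb) stood above Htr1a (66.4), Htr5a (39.7) above Htr6 (37.1), and Htr4 had the lowest median, 12, below Htr1d at 16.1.

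**Figure D1:**
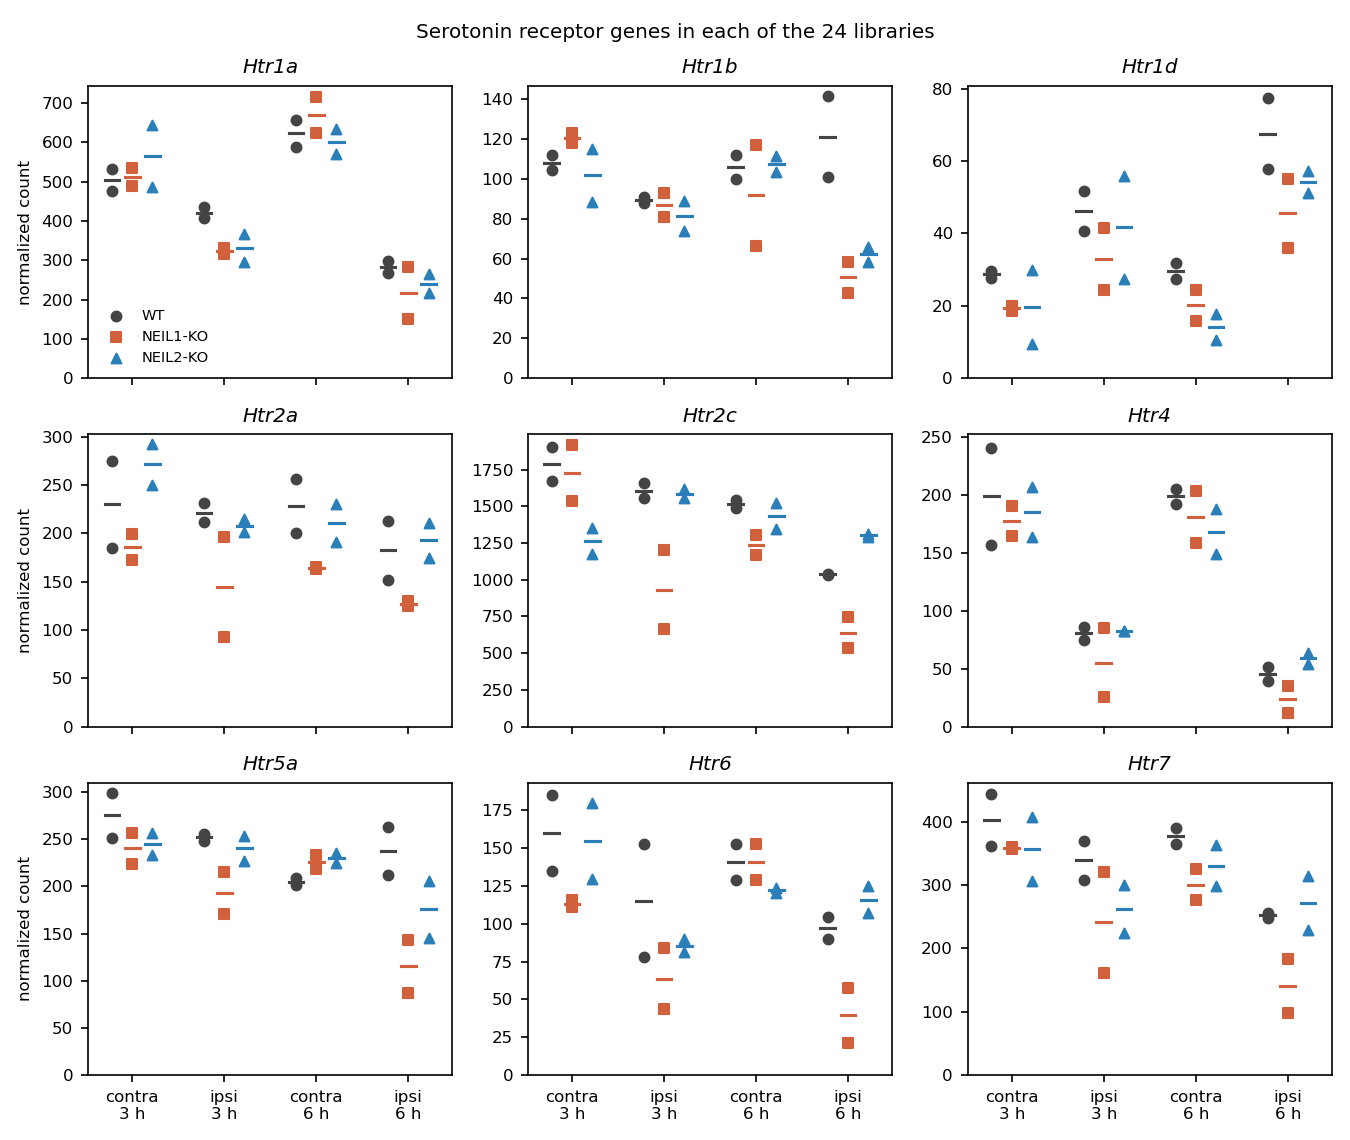
Normalized counts (vertical axes, starting at 0) of the 9 receptor genes by side and time (horizontal axis), with 1 point per library and a short line at the mean of the 2 libraries of each genotype. Ipsilateral points of Htr4 and Htr1a lie below every contralateral point of the same time, and those of Htr1d lie above them at 6 h.

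The first question was how the receptor genes differed between the ipsilateral and the contralateral side. At 6 h, 7 of the 9 were lower on the ipsilateral side as the mean of the genotypes, led by Htr4 at 21.4% and Htr1a at 38.4% of the contralateral level, and 1, Htr1d, was higher at 264%. At 3 h, 4 were lower (Htr4, Htr1a, Htr6 and Htr7) and Htr1d was higher. These counts are from limma with Benjamini-Hochberg adjustment over 18364 genes at an adjusted p under 0.05. The background was large: 31.6% of all genes tested passed at 3 h, 14.1% as higher and 17.4% as lower, while at 6 h 48.7% passed, 24% upward and 24.7% downward. The 5 of 9 called at 3 h and 8 of 9 at 6 h are to be read against those shares. The median log2 difference of the members was -0.35 at 3 h and -0.55 at 6 h, against 0.01 and 0.02 over all genes. Neuronal markers moved the same way: 7 of 10 fell at 3 h and 10 of 10 at 6 h, with a summed ipsilateral level of 74629 to 158852 normalized counts against 167018 to 205007 contralaterally, and their part in the receptor differences was not tested. The 6 endothelial markers went the other way, with 5 of 6 higher at both times. At 6 h their median summed level was 7589 normalized counts ipsilaterally and 4218 contralaterally. In the same order the medians were 77000 and 76020 for astrocyte markers, 3393 and 3599 for microglial and 12910 and 13330 for oligodendrocyte lineage markers. The part of these cell types in the rise of Htr1d was not tested either.

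Among the Gi/o-coupled receptors, Htr1a, the main inhibitory serotonin receptor of hippocampal principal neurons, fell at both times. In WT, Htr1a stood at 532 and 476 normalized counts contralaterally and 435 and 407 ipsilaterally at 3 h, and at 587 and 658 against 268 and 299 at 6 h. In the libraries labelled NEIL1-KO the values were 489 and 534 against 330 and 315 at 3 h, and 715 and 623 against 283 and 151 at 6 h. In NEIL2-KO they were 644 and 485 against 366 and 297, and then 571 and 632 against 217 and 264. The sides did not overlap at either time, and all 6 pairs of libraries with the same number were lower ipsilaterally at 3 h and all 6 at 6 h. The log2 difference was -0.56 ± 0.12 (SE) at 3 h (limma, adjusted p = 0.00192) and -1.38 ± 0.12 at 6 h (adjusted p = 8.27e-08). Both calls held with every left-out library (highest adjusted p 0.0095 at 3 h and 9.58e-07 at 6 h).

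With all libraries in the fit, Htr1a was the only member whose change of side difference between the times passed the threshold. An unadjusted p under 0.05 was found for 2 members, Htr1a and Htr4, and Htr4 changed by a similar amount with a larger SE (-0.78 ± 0.36, limma, adjusted p = 0.279). Without the libraries labelled NEIL1-KO Htr2c passed as well (-0.43, adjusted p = 0.039). For Htr1a the difference of differences (6 h minus 3 h) was -0.82 ± 0.17 on the log2 scale (limma, adjusted p = 0.0266). In this comparison 1.9% of all genes passed. In the ipsilateral hippocampus itself Htr1a was lower at 6 h than at 3 h by -0.56 ± 0.12 (adjusted p = 0.0077), while contralaterally it differed by 0.26 ± 0.12 (adjusted p = 0.381). Times were sampled in different pups. The change of the side difference kept its call in 16 of 24 fits that left out 1 library, with adjusted p from 0.00149 to 0.072. The fits without the call lacked WT contralateral 6 h replicate 2, WT ipsilateral 3 h replicate 1, NEIL1-KO contralateral 3 h replicate 1, NEIL1-KO contralateral 6 h replicate 1, NEIL2-KO contralateral replicate 2 of either time, NEIL2-KO ipsilateral 3 h replicate 1 or NEIL2-KO ipsilateral 6 h replicate 1, and the difference stayed between -0.97 and -0.67 in all settings tried.

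Htr1d, a low-level axonal autoreceptor and heteroreceptor gene, was the single member that rose. In WT it had 29.6 and 27.8 normalized counts contralaterally and 40.7 and 51.8 ipsilaterally at 3 h, and 31.7 and 27.4 against 57.9 and 77.3 at 6 h. In the libraries labelled NEIL1-KO the values were 20.1 and 18.6 against 24.3 and 41.5, and then 15.9 and 24.4 against 55.2 and 36.1. In NEIL2-KO they were 9.5 and 29.8 against 27.6 and 55.8, and then 17.8 and 10.6 against 51.3 and 57.4. All 6 pairs were higher ipsilaterally at each time, the sides overlapped at 3 h, and they did not overlap at 6 h. Few reads stand behind these values. Pooled over the 2 libraries of a group at 6 h, Htr1d had 55 contralateral and 159 ipsilateral reads in WT (depth-scaled ratio 2.28, 95% interval 1.67 to 3.16), 36 and 102 in the libraries labelled NEIL1-KO (2.33, 1.58 to 3.51) and 25 and 124 in NEIL2-KO (3.68, 2.38 to 5.9). At 3 h the ratios were 1.59 (1.12 to 2.3), 1.64 (1.09 to 2.47) and 2.04 (1.38 to 3.06) in the same order, and these intervals cover counting error only. None of the 6 intervals included 1. The fitted log2 difference was 0.84 ± 0.26 at 3 h (limma, adjusted p = 0.0181) and 1.40 ± 0.26 at 6 h (adjusted p = 0.000199). The 3 h call was lost, with adjusted p up to 0.0739, without WT ipsilateral replicate 2, NEIL1-KO ipsilateral replicate 2, NEIL2-KO contralateral replicate 1 or NEIL2-KO ipsilateral replicate 2, whereas the 6 h call held in all 12 such fits.

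Htr1b, the other terminal receptor of this group, did not follow Htr1d. Its contralateral values spanned 88.5 to 123 normalized counts at 3 h (median 113) and its ipsilateral values 73.7 to 93 (median 88.3), and at 6 h they spanned 66.5 to 117 (median 107) and 42.9 to 142 (median 62). The sides overlapped at both times. At 3 h all 6 pairs were lower ipsilaterally, with a log2 difference of -0.35 ± 0.14 that missed the threshold (limma, adjusted p = 0.0654) and passed it with the animal as a block (0.0266). At 6 h the difference was -0.47 ± 0.14 (adjusted p = 0.00959), where the 4 knockout pairs were lower and both WT pairs were higher ipsilaterally (100 contralaterally and 101 ipsilaterally, then 112 and 142 normalized counts). Without the libraries labelled NEIL1-KO the call was lost (-0.31, adjusted p = 0.112). Htr5a, a receptor of forebrain neurons, showed a like split at 6 h. It fell by -0.40 ± 0.12 (adjusted p = 0.00978), with 87 to 263 normalized counts ipsilaterally against 201 to 235 contralaterally, and the value was -0.10 (adjusted p = 0.549) without the libraries labelled NEIL1-KO. In WT both pairs were higher ipsilaterally (201 contralaterally and 212 ipsilaterally, then 209 and 263). At 3 h Htr5a differed by -0.16 ± 0.12 (adjusted p = 0.348).

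Of the Gq-coupled receptors, Htr2c fell at 6 h and Htr2a did not pass at either time. Htr2c, the receptor best known from choroid plexus and also made by hippocampal neurons, stood at 1489 and 1545 normalized counts contralaterally and 1040 and 1035 ipsilaterally in WT at 6 h. In the libraries labelled NEIL1-KO the values were 1307 and 1171 against 748 and 533, and in NEIL2-KO 1523 and 1343 against 1291 and 1313. All 6 pairs were lower, although the sides overlapped over the genotypes, and the difference was -0.55 ± 0.12 (limma, adjusted p = 0.000648). At 3 h only the libraries labelled NEIL1-KO gave a call (1920 and 1539 against 667 and 1199, log2 difference -0.94 ± 0.20, adjusted p = 0.0038), and both NEIL2-KO pairs were higher ipsilaterally (1174 against 1553, and 1350 against 1614). That NEIL1-KO call was lost without contralateral replicate 1 or ipsilateral replicate 1, with adjusted p up to 0.0817. Over the genotypes the 3 h difference of -0.25 ± 0.12 did not pass (adjusted p = 0.101), and it turned to 0.09 without the libraries labelled NEIL1-KO. The choroid plexus marker Ttr varied widely between libraries. In WT at 3 h contralaterally, Ttr was at 35650 and 174 normalized counts in the libraries in which Htr2c was at 1903 and 1672. At 6 h the mean of Ttr was 29300 normalized counts contralaterally and 284 ipsilaterally in WT, and 15000 and 644 in NEIL2-KO. The libraries labelled NEIL1-KO went the other way, with 174 contralaterally and 15600 ipsilaterally. The NEIL2-KO contralateral mean rested mainly on replicate 1, with log2 values of 14.828 and 9.867 in replicates 1 and 2. By pair the log2 difference of Ttr at 6 h was -5.176 and -0.94 in NEIL2-KO and -6.637 and -6.736 in WT. It was at least 5.862 in both pairs labelled NEIL1-KO. At 6 h Ttr thus moved with side in WT and in the libraries labelled NEIL1-KO, and less evenly in NEIL2-KO. The 6 h call of Htr2c by side held under all 10 other settings, among them a choroid plexus term. Beyond such a fit, the part of choroid plexus in the side difference of Htr2c was not tested. Htr2c also hosts several small RNA genes within its introns, none of which overlaps its exons in the annotation used. Htr2a, the cortical Gq-coupled receptor, differed by -0.29 ± 0.15 at 3 h (adjusted p = 0.169) and -0.27 ± 0.15 at 6 h (adjusted p = 0.153), with 5 of 6 pairs lower at each time.

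The Gs-coupled receptors held the largest fall of the 9 genes. Htr4, a receptor that promotes hippocampal excitability through cyclic AMP, stood in WT at 157 and 241 normalized counts contralaterally and 86.2 and 74.9 ipsilaterally at 3 h, and at 192 and 205 against 51.6 and 39.5 at 6 h. Its values in the libraries labelled NEIL1-KO were 165 and 190 against 25.2 and 85.2, and then 203 and 158 against 35 and 12. In NEIL2-KO it stood at 164 and 207 against 82.7 and 82.3, and then 188 and 149 against 54.3 and 63.5. No ipsilateral library reached any contralateral library at either time, and all 6 pairs were lower at each time. The log2 difference was -1.44 ± 0.25 at 3 h (limma, adjusted p = 0.000304) and -2.22 ± 0.25 at 6 h (adjusted p = 1.29e-06). Both calls held with each library left out in turn and under all 10 other settings. The lowest library, NEIL1-KO ipsilateral 6 h replicate 2, held 13 reads of Htr4, and it was also the lowest of the 24 for Htr1a, Htr2c, Htr5a, Htr6 and Htr7. Pooled by group, the ratio of ipsilateral to contralateral reads at 6 h was 0.229 in WT (0.183 to 0.285), 0.13 in the libraries labelled NEIL1-KO (0.0955 to 0.174) and 0.341 in NEIL2-KO (0.276 to 0.42), from 53 to 134 ipsilateral reads.

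Htr6 and Htr7 fell less and less evenly. Htr6, a receptor of neuronal primary cilia, had 111 to 185 normalized counts contralaterally (median 132) and 43.4 to 152 ipsilaterally (median 82.6) at 3 h, and 121 to 153 (median 129) and 21.3 to 125 (median 97.2) at 6 h. The sides overlapped at both times, and 5 of 6 pairs were lower at each. Its difference was -0.75 ± 0.22 at 3 h (limma, adjusted p = 0.0133) and -0.86 ± 0.22 at 6 h (adjusted p = 0.00328). The 3 h call was lost without WT ipsilateral replicate 2 or NEIL1-KO ipsilateral replicate 1 (adjusted p up to 0.0586). The 6 h value was -0.30 (adjusted p = 0.228) without the libraries labelled NEIL1-KO, in which Htr6 went from 153 and 129 to 57.8 and 21.3. Htr7, a receptor abundant in thalamus and hippocampus, had a median of 361 normalized counts contralaterally and 304 ipsilaterally at 3 h, and of 344 and 239 at 6 h. It differed by -0.45 ± 0.17 at 3 h (adjusted p = 0.0486), a call that held in 3 of 12 fits with 1 library left out (adjusted p 0.00525 to 0.182) and in 5 of 10 other settings (0.0539 with the animal as a block). It held without NEIL1-KO ipsilateral replicate 2, NEIL2-KO contralateral replicate 2 or NEIL2-KO ipsilateral replicate 1 and was lost without any 1 of the other 9 libraries. At 6 h the difference was -0.68 ± 0.17 (adjusted p = 0.00272), and it held in all 12 such fits and without the libraries labelled NEIL1-KO.

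**Figure D2:**
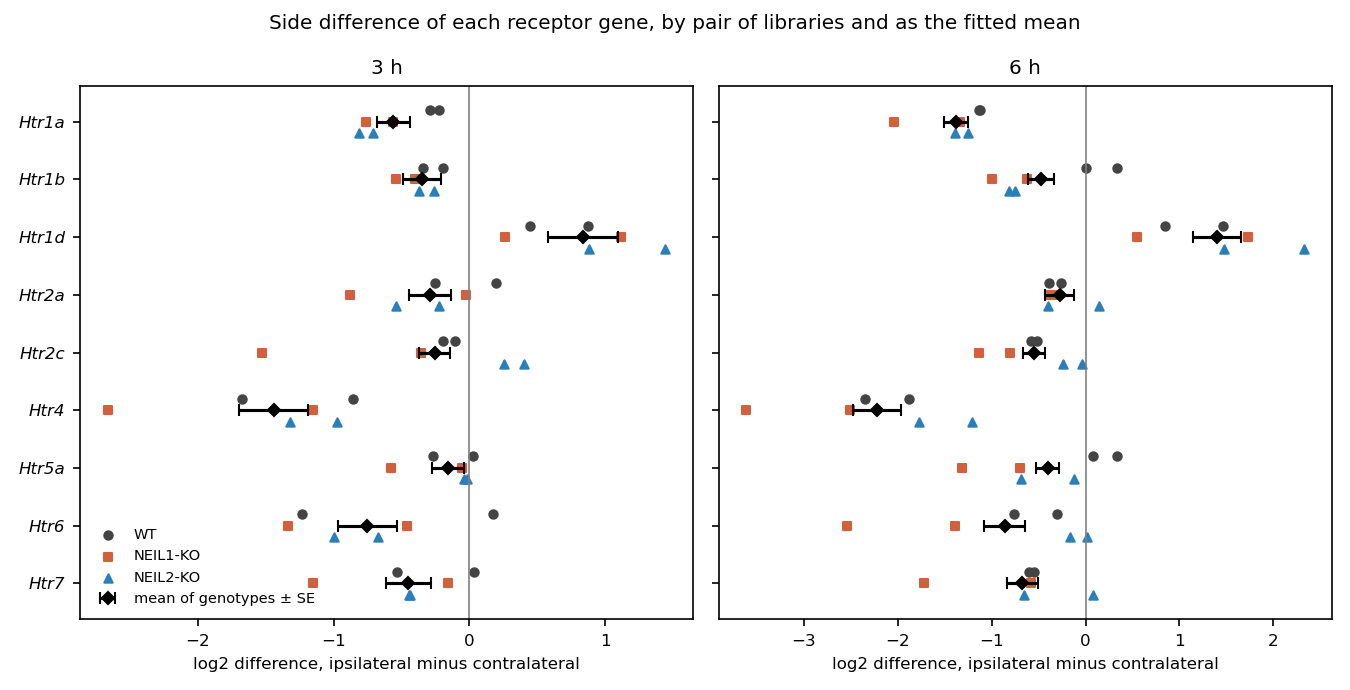
Log2 difference between ipsilateral and contralateral hippocampus (horizontal axes) for each receptor gene at 3 h (left) and 6 h (right), with coloured points for the 6 pairs of same-numbered libraries and black diamonds for the fitted mean of the genotypes with its SE. All 6 pairs of Htr1a and Htr4 lie below 0 and all 6 of Htr1d above 0 at both times, and at 6 h both WT pairs of Htr1b and Htr5a lie at or above 0 while the NEIL1-KO pairs lie below it.

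Taken genotype by genotype, with 2 libraries per side, the calls were fewer, except in the libraries labelled NEIL1-KO at 6 h. In WT none of the 9 receptor genes passed at 3 h with limma (edgeR 0, DESeq2 1, and 1 gene at an unadjusted p under 0.05), where 4.29% of all genes did. In WT at 6 h Htr1a (-1.13 ± 0.21, adjusted p = 0.00134) and Htr4 (-2.11 ± 0.44, adjusted p = 0.00268) passed, against 20.6% of all genes, and both held with each library left out. The count in WT at 6 h was 4 with edgeR, 4 with DESeq2 and 5 with only the compared groups fitted. Htr1d in WT at 6 h (1.16 ± 0.44, adjusted p = 0.074) passed with the animal as a block (0.0467). In the libraries labelled NEIL1-KO, Htr1a, Htr2c and Htr4 passed at 3 h (17% of all genes) and 8 genes at 6 h (39% of all genes). At 6 h these were Htr4 (-3.06 ± 0.44), Htr6 (-1.97 ± 0.38), Htr1a (-1.69 ± 0.21), Htr7 (-1.15 ± 0.29), Htr5a (-1.01 ± 0.21), Htr2c (-0.97 ± 0.20) and Htr1b (-0.81 ± 0.24), all lower, and Htr1d (1.14 ± 0.44), higher with an adjusted p of 0.0499. With only the compared groups fitted, 1 gene passed at 3 h (Htr2c and Htr4 did not) and 4 at 6 h (Htr1b, Htr1d, Htr5a and Htr7 did not). The Htr1d call was lost with any of the 4 libraries left out (adjusted p 0.0604 to 0.277). The Htr1b call was lost without contralateral replicate 2 or ipsilateral replicate 1 (adjusted p up to 0.261), and the Htr7 call without ipsilateral replicate 2 (0.114). In NEIL2-KO, Htr1a passed at 3 h (-0.76 ± 0.21, adjusted p = 0.0314, 9.24% of all genes). Htr1a (-1.32 ± 0.21), Htr4 (-1.49 ± 0.44), Htr1b (-0.78 ± 0.24) and Htr1d (1.90 ± 0.44) passed at 6 h (24.8% of all genes). Of these 6 h calls only Htr1a held with each of the 4 NEIL2-KO libraries left out. Htr4 and Htr1b were lost in all 4 such fits (adjusted p 0.0536 to 0.122, and 0.0792 to 0.126), and Htr1d without contralateral replicate 2 (0.0665). At 3 h Htr1a was lost without contralateral replicate 1 or either ipsilateral replicate in NEIL2-KO (adjusted p up to 0.288), and in the libraries labelled NEIL1-KO without any 1 of the 4 (0.101 to 0.195). The 3 h Htr4 call of the libraries labelled NEIL1-KO (-1.91 ± 0.44, adjusted p = 0.00655) was lost without contralateral replicate 2 or ipsilateral replicate 1 (0.141).

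Whether the side difference itself depended on genotype was tested as a difference of differences. None of the 9 receptor genes passed for NEIL1-KO minus WT with limma, nor with edgeR or DESeq2, and 0% of all genes tested passed, although 5 of the 9 had an unadjusted p under 0.05. These 5 were Htr6 (-0.90 ± 0.38), Htr5a (-0.70 ± 0.21), Htr2c (-0.60 ± 0.20), Htr1b (-0.59 ± 0.24) and Htr1a (-0.48 ± 0.21), with adjusted p from 0.303 to 0.325. Without NEIL1-KO ipsilateral 6 h replicate 1, 4 of the 9 passed, as did 2101 of all 18364 genes. For NEIL2-KO minus WT none passed with limma, edgeR or DESeq2, 0% of all genes passed, and 1 gene had an unadjusted p under 0.05 (Htr2c, 0.45 ± 0.20, adjusted p = 0.869). The 2 differences share the WT libraries.

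The knockouts were then compared with WT within each side, as the mean of both times. On the contralateral side none of the 9 genes passed for NEIL1-KO minus WT with limma, edgeR or DESeq2 (0 at an unadjusted p under 0.05, 0.103% of all genes passed). For NEIL2-KO minus WT none passed either by the 3 tools (1 at an unadjusted p under 0.05, Htr1d at -0.88 ± 0.31, adjusted p = 0.504, and 0.0817% of all genes passed). On the ipsilateral side 5 genes were lower in the libraries labelled NEIL1-KO, where 9.31% of all genes passed (1.91% higher, 7.4% lower). These were Htr6 (-1.14 ± 0.27, adjusted p = 0.0165), Htr2c (-0.78 ± 0.14, adjusted p = 0.00643), Htr7 (-0.73 ± 0.20, adjusted p = 0.0334), Htr5a (-0.73 ± 0.15, adjusted p = 0.00991) and Htr1b (-0.64 ± 0.17, adjusted p = 0.0289). The other 4 also had negative values, from -0.93 ± 0.31 for Htr4 (adjusted p = 0.0647) to -0.42 ± 0.15 for Htr1a (adjusted p = 0.0839). None of the 5 calls held when only the groups compared were fitted (adjusted p 0.26 or more), and 2, Htr2c and Htr5a, held with a choroid plexus term. With a sex term 4 held, and Htr7 did not (adjusted p = 0.062). Only Htr2c held with each of the 8 libraries left out in turn. In the same comparison 7 of 10 neuronal markers were lower, the summed neuronal level being 74629 to 136161 normalized counts in the ipsilateral libraries labelled NEIL1-KO and 132844 to 158852 in WT. The choroid plexus sum was 446 to 21696 against 510 to 797. Apart from the fit with a choroid plexus term, the part of either in the receptor differences was not tested. For NEIL2-KO minus WT ipsilaterally none of the 9 passed by any of the 3 tools (1 at an unadjusted p under 0.05, Htr1b at -0.54 ± 0.17, and 0.109% of all genes passed). Both knockouts were compared with the same WT libraries.

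**Figure D3:**
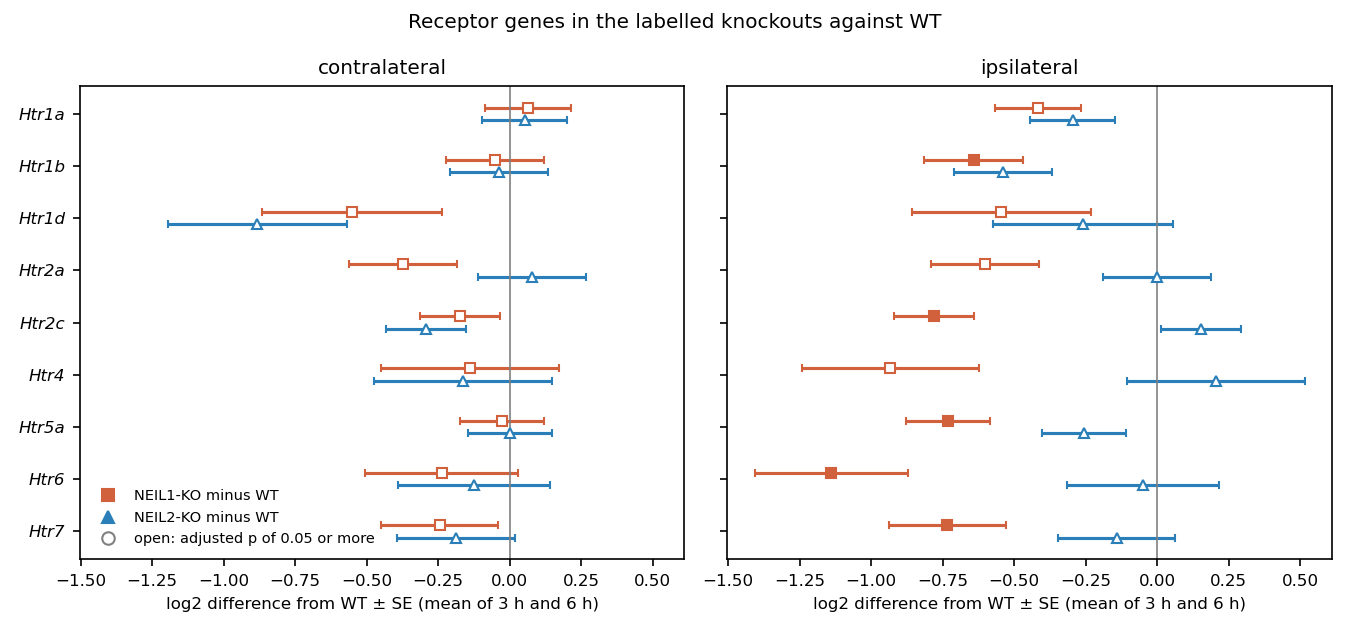
Log2 difference from WT (horizontal axes, fitted value with SE) of the 9 receptor genes on the contralateral (left) and ipsilateral (right) side, for the libraries labelled NEIL1-KO (squares) and NEIL2-KO (triangles), with filled symbols where the adjusted p was under 0.05. The only filled symbols are the 5 ipsilateral NEIL1-KO values of Htr1b, Htr2c, Htr5a, Htr6 and Htr7.

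Time was compared within each side over the genotypes. Contralaterally none of the 9 genes differed between 6 h and 3 h with limma, edgeR or DESeq2 (1 at an unadjusted p under 0.05, Htr1a, and 0.332% of all genes passed). Ipsilaterally 4 were lower at 6 h, Htr4 (-0.81 ± 0.25, adjusted p = 0.0431), Htr1a (-0.56 ± 0.12, adjusted p = 0.0077), Htr2c (-0.47 ± 0.12, adjusted p = 0.0132) and Htr5a (-0.45 ± 0.12, adjusted p = 0.0225), against 12.7% of all genes. The calls of Htr1a and Htr2c held in all 12 fits that left out 1 library, that of Htr5a in 5 of 12 (adjusted p up to 0.084) and that of Htr4 in 2 of 12 (up to 0.126). Htr4 also missed the threshold with the replicate number as a block (0.0535) and with a sex term. The call of Htr5a was also lost without the libraries labelled NEIL1-KO. None held when only the ipsilateral groups were fitted (adjusted p up to 0.158).

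Genes whose pattern over the 24 libraries was most like that of a member were ranked among 14498 genes by Pearson's r of log2 values. The nearest to Htr4 were Iqsec3 (0.986), Gpr22 (0.979) and Synj1 (0.979), and to Htr1a Ank3 (0.966), Sphkap (0.965) and Adamts3 (0.965). Ank3 encodes ankyrin G of the axon initial segment and Synj1 a synaptic phosphatase. For Htr1d they were Atp8b1 (0.917), Cep43 (0.915) and Lpar2 (0.904), and for Htr2c Parm1 (0.910), Etv1 (0.904) and Snap25 (0.901). The nearest to the others were Ccdc85a for Htr5a (0.931), Otud7a for Htr6 (0.943), Rapgef2 for Htr7 (0.939), Sdr42e1 for Htr2a (0.895) and Pcdh11x for Htr1b (0.876). Among the members themselves the highest values were between Htr1a and Htr4 (0.883) and between Htr6 and Htr7 (0.878), and Htr1d ran against Htr1a (-0.714). All of these are descriptions over libraries that share sides, times and preparation.

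The genes that carry the receptors' signals were described from lists. Of the Gi/o list, 5 of 8 fell and 2 rose at 6 h, among them the potassium channel subunits Kcnj3 (-1.31 ± 0.11, limma, adjusted p = 5.27e-08) and Kcnj6 (-1.29 ± 0.17, adjusted p = 9e-06), the G protein subunit Gnai1 (-0.60 ± 0.09) and, rising, Gnai2 (0.60 ± 0.10). Of the Gq list, 6 of 8 fell and 2 rose, with Prkca (-1.70 ± 0.10, adjusted p = 8.78e-10), the calcium release channel Itpr1 (-0.75 ± 0.08), Gnaq (-0.83 ± 0.09) and phospholipase Plcb1 (-0.89 ± 0.10). Of the Gs list, 7 of 10 fell and 1 rose, with the adenylyl cyclases Adcy5 (-0.80 ± 0.10), Adcy9 (-1.12 ± 0.15) and Adcy1 (-0.93 ± 0.16) and the Gs-family subunit Gnal (-0.63 ± 0.09). These counts stand beside 24.7% of all genes lower at 6 h. Of 10 receptor partners, 7 fell and 2 rose at 6 h, with the arrestin Arrb1 (-0.69 ± 0.07) and the receptor kinases Grk2 (-0.43 ± 0.07), Grk6 (-0.40 ± 0.07) and Grk3 (-0.36 ± 0.08) all lower.

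Genes of serotonin supply were mixed. Of 8 listed, 7 were tested. At 6 h 3 fell and 1 rose, where 48.7% of all genes passed, and none of the 7 passed at 3 h, where 31.6% did. Slc18a2, the vesicular monoamine transporter, fell by 1.08 ± 0.18 (limma, adjusted p = 8.98e-05), Ddc, the decarboxylase of serotonin and dopamine synthesis, fell by 0.58 ± 0.20 (adjusted p = 0.0187) and Maoa, which degrades serotonin, by 0.16 ± 0.06 (adjusted p = 0.0331). Slc6a4, the serotonin transporter, rose by 1.06 ± 0.40 (adjusted p = 0.0347), from 1 to 15 reads per contralateral library and 8 to 31 per ipsilateral library at 6 h. Only WT ipsilateral 6 h (18.5) and NEIL1-KO contralateral 6 h (10.5) had a group mean of at least 10 normalized counts, the value of the filter. By pair the log2 difference at 6 h was 2.680 and 1.648 in WT and 0.763 and 1.483 in NEIL2-KO. It was -0.580 and 0.395 in the libraries labelled NEIL1-KO, so the call rests on low values and mostly on WT. Tph2, the neuronal synthesis enzyme, differed by 0.24 ± 0.25 (adjusted p = 0.466). Of the 5 other serotonin receptors listed, Htr2b and Htr3b did not pass the filter, and Htr1f, Htr5b and the ion channel gene Htr3a did not differ by side at either time. Htr3a separated the genotypes instead. It stood at 33 to 48.6 normalized counts in the 4 contralateral libraries labelled NEIL1-KO against 129 to 158 in WT and 117 to 157 in NEIL2-KO, and at 15.7 to 48.2 ipsilaterally against 49.4 to 177 and 148 to 214. The differences from WT were -1.83 ± 0.28 contralaterally (limma, adjusted p = 0.00432) and -1.99 ± 0.28 ipsilaterally (adjusted p = 0.00186). Htr3a marks a class of interneurons, and 3 of 10 interneuron markers were lower in the ipsilateral and 0 of 10 in the contralateral comparison. The cause of the Htr3a difference was not tested.

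The receptors for other amines gave a reference for the direction. Of 22 listed, 21 were tested, and at 6 h 11 rose and 7 fell, with a median of 0.69 against -0.55 for the 9 serotonin receptors. The muscarinic receptors Chrm1 (-1.30 ± 0.14, limma, adjusted p = 5.46e-07) and Chrm3 (-1.20 ± 0.15, adjusted p = 5.15e-06) fell, and the histamine receptor Hrh1 (1.44 ± 0.15, adjusted p = 5.65e-07) and the adrenergic receptor Adra2b (2.38 ± 0.33, adjusted p = 9.91e-06) rose. At 3 h 5 rose and 6 fell. Of all genes, 24% rose and 24.7% fell at 6 h, and 31.6% passed in either direction at 3 h. The members and lists were chosen with earlier results of these data known. The metabotropic receptor genes Htr1f and Htr5b, which did not differ by side, are not among the 9. The difference between the families was not tested.

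**Figure D4:**
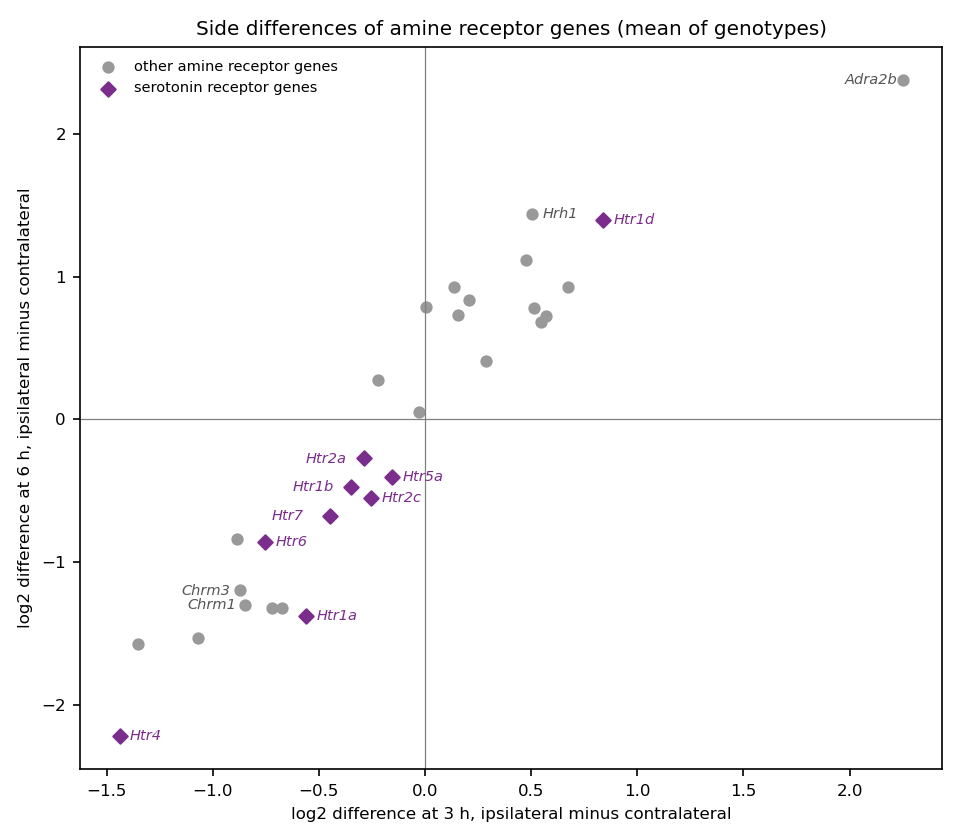
Log2 side difference (ipsilateral minus contralateral, mean of the genotypes) at 3 h (horizontal axis) and 6 h (vertical axis) for the 9 serotonin receptor genes (diamonds) and 21 receptor genes of other amines (circles), 1 point per gene. Htr1d is the only diamond above 0, whereas the circles lie on both sides of it.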

How the data were processed

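Hippocampal RNA-seq of 24 libraries was analysed. The authors deposited 1 signal per gene and library, a read count divided by a size factor. The submitters' processing notes name DESeq2, featureCounts, SAMtools, HISAT2 and Trim Galore and the build GRCm39, with no versions in the sources used here. Dividing each deposited signal by the smallest step of its library gave whole reads (100% of values, tolerance 1e-06). Of 33084 lines, 10770 without a gene name (32.55%) were left out.

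Log2(signal + 1) was fitted with limma 3.58.1 (trend), with 12 group means and 1 shared spread, over 18364 genes with a value of at least 10 in at least 2 libraries. Tests were two-sided with Benjamini-Hochberg adjustment over all genes, called at an adjusted p under 0.05. Fold changes on this scale understate low genes. Alternatives were edgeR 4.0.16 and DESeq2 1.42.0 on the recovered reads, TMM scaling, a pseudocount of 5, no filter, only the compared groups, an animal block (replicate number within a side), terms for choroid plexus and sex, and each library left out. A fit without the libraries labelled NEIL1-KO was chosen after seeing the data. The fit was tested on simulated data with independent libraries, no pairing of the sides and no choroid plexus or sex differences. That check does not give the error rate of the p-values in these data. edgeR called 5825 genes by side at 3 h and 9093 at 6 h, against 5800 and 8945 with limma.

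In the animal block and in the pairs, the 2 sides with 1 number were treated as 1 animal, an inference from the design text. The main fit, which gave the limma p-values, did not use this pairing. Xist was high on both sides or on neither for 12 of 12 numbers (high for 3). The correlation of same-numbered deviations was -0.00576 and -0.00334 in WT (3 h and 6 h), 0.271 and 0.155 in NEIL1-KO, and 0.0537 and 0.035 in NEIL2-KO.

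All 9 members and Neil1 and Neil2 were named. Of each list, the counts and up to 4 genes with the smallest adjusted p by side at 6 h were named, with Slc6a4 and Tph2. The members and lists were chosen with earlier results of these data known. Interneuron, endothelial, glial, neuronal and region markers served as checks.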

Additional observations from a re-analysis of the deposited data

Results flagged for a closer look

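Among 54 sets of 4 libraries (each receptor gene in each genotype and side), 2 held a library far from the other 3, where chance gives about 1 in 20. Htr1b stood at 66.5 normalized counts in NEIL1-KO contralateral 6 h replicate 1, against 117 to 123 in the other contralateral libraries labelled NEIL1-KO. Htr6 stood at 180.1 in NEIL2-KO contralateral 3 h replicate 2, against 121 to 130 in the others.

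The side difference of Htr1a was lower at 6 h than at 3 h by a tested -0.821 (limma, adjusted p = 0.0266).

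In 8 further cases both pairs of libraries of a group lay on the opposite side of 0 from both pairs of another group. These differences were not tested on their own, and each rests on 2 pairs per group. For Htr1b at 6 h the mean log2 side difference was 0.172 in WT, and NEIL1-KO differed from it by -0.979 and NEIL2-KO by -0.956. For Htr1b in WT, 6 h minus 3 h was 0.439. For Htr5a at 6 h the WT mean was 0.204, and NEIL1-KO differed from it by -1.210 and NEIL2-KO by -0.609. For Htr2c at 3 h the NEIL2-KO mean was 0.330, which differed from WT by 0.482 and from NEIL1-KO by 1.272, and within NEIL2-KO 6 h minus 3 h was -0.466.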

How the results depend on the processing

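Counts of receptor genes called changed under these settings. Without the libraries labelled NEIL1-KO, 5 passed by side at 6 h and 2 passed for the change of the side difference between times (Htr1a and Htr2c). In that fit Htr2c by side at 3 h reversed to 0.089. With only the compared groups fitted, the counts were 1 in WT at 3 h, 5 in WT at 6 h, 1 in NEIL1-KO at 3 h, 4 in NEIL1-KO at 6 h, 3 in NEIL2-KO at 3 h, 0 for ipsilateral NEIL1-KO minus WT and 0 for ipsilateral 6 h minus 3 h. The cause was not tested. edgeR called 4 in WT at 6 h. DESeq2 called 1 in WT at 3 h, 4 in WT at 6 h and 2 in NEIL2-KO at 3 h. With a choroid plexus term, 2 passed for ipsilateral NEIL1-KO minus WT. With 1 library left out at a time the counts ran from 2 to 6 by side at 3 h, 0 to 5 in NEIL1-KO at 3 h, 0 to 2 in NEIL2-KO at 3 h, 1 to 2 in NEIL2-KO at 6 h, 0 to 1 for the change of the side difference with time, 0 to 4 for that between NEIL1-KO and WT, 1 to 8 for ipsilateral NEIL1-KO minus WT and 2 to 5 for ipsilateral 6 h minus 3 h. Where a fit left 1 library in a group, that library was assumed to vary like the other groups. A fit of only the compared groups was not run where a comparison uses all 12.

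The replicate block (the animal between sides, the replicate number within a side) moved no count by over 1.5 times. Under it 5 and 8 genes passed by side at 3 h and 6 h (Htr1b passed and Htr7 did not at 3 h), 3 in WT at 6 h (Htr1d added) and 3 for ipsilateral 6 h minus 3 h (Htr4 lost), and it changed no other call. Of the values under other settings of genes called in a comparison, and of all 9 genes by side as the mean of the genotypes, 715 kept their direction and side of the threshold, 116 lost the threshold, 4 gained it and 1 reversed. Genes not called in the other comparisons are not in this count. The 2 libraries per group, and for Htr1d its 8 to 94 reads per library, limit the precision.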
